A study of Homo sapiens with 14 samples.

Results

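The 194 regions described here are the distal regions whose H3K4me2 signal was higher in OICR-9429-treated than in DMSO-treated MDA-MB-231 cells. They were chosen from 54942 regions counted by ChIP-seq. Of all regions, 53634 lay on chromosomes 1 to 22, and 41205 of these lay more than 1 kb from both ends of every RefSeq protein-coding gene. A mean raw count of at least 50 over the 6 ChIP libraries left 31327 regions, called the eligible distal regions below. The 194 gained regions (0.619% of those 31327) had a higher CPM, the count scaled by the column total of its library, in every OICR-9429 library than in every DMSO library. Their log2 ratio of the mean OICR-9429 CPM to the mean DMSO CPM was at least 0.5. The same rule turned to the lower side found 7729 regions (24.7%), called the falling regions below.

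MDA-MB-231 is an established triple-negative breast cancer line, and all cells compared belong to it. OICR-9429 is a small molecule that antagonises WDR5, and DMSO is its solvent. The 3 DMSO and 3 OICR-9429 ChIP libraries are numbered as biological replicates in the titles, which do not say how cultures were kept apart. The count columns number the same libraries differently, starting from 2, and replicate numbers here are those of the titles. Treatment ran from 24 to 96 h, with no time given per library and no dose given in the labels, so times cannot be told apart here. The 6 matching inputs and 2 untreated libraries were not analysed here. The labels give a Drosophila spike-in of 5% for the DMSO and OICR-9429 ChIP libraries. No factor derived from that spike-in was applied, and every ratio is relative to the rest of the same library. Column totals ran from 16483098 to 23509413 counts, with the highest in OICR-9429 replicate 1.

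H3K4me2 marks promoters and distal elements such as enhancers, and its breadth around start sites usually exceeds that of H3K4me3. WDR5 is a shared core subunit of the MLL/SET1 methyltransferase complexes that place H3K4 methylation. OICR-9429 occupies the pocket through which WDR5 binds the MLL protein, and was developed to break that contact. The line's identity was checked at gene boundaries, the regions within 1 kb of a gene end, by each gene's strongest region. In DMSO, the mesenchymal and basal-like genes VIM, CD44, AXL, FOSL1, ZEB1 and EGFR had 66.8 to 494 CPM there. The luminal and epithelial genes PGR, GATA3, CDH1, EPCAM and ERBB3 had 12.4 to 32.6 CPM, and ESR1 had no boundary region of sufficient count. Among blood and endothelial genes, CD3E had 21.1 CPM and PTPRC, PECAM1, CDH5 and TIE1 had no such region.

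The label "distal" held only with respect to the ends of protein-coding genes. Of the gained regions, 23 (11.9%) lay within 1 kb of an end of a gene that is not protein-coding, against 12.3% of eligible regions. Of the 194 gained regions, 7 (3.61%) contained an annotated internal start of a protein-coding gene and 8 (4.12%) an annotated start of a noncoding gene. These were 14 regions (7.22%) in all because GLIS3 and GLIS3-AS2 share 1. Among eligible distal regions the share with any annotated start was 7.01%, and among falling regions 3.33%. Of the 15 upstream windows, 8 are shown, those of the 7 protein-coding genes and of DANCR. Where a gene had several starts in a region, the window of the start nearest the region's centre was taken. Each sequence is the 250 bases before the RefSeq start (GRCh38.p14, the patch release of hg38), 5′ to 3′ on the strand of the gene. Capitals mark matches on either strand to 4 motifs: the E-box CACGTG, the GC box GGGCGG, the AP-1 site TGANTCA and the TATA box TATAAA. No searched motif contains another.
HK1, chr10:69318814-69319063 (plus strand): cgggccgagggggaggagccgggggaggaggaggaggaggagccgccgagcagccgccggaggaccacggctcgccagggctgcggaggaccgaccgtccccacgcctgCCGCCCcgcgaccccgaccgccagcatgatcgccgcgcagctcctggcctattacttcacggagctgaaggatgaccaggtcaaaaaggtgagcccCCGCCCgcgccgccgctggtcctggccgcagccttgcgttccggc
ADGRL2, chr1:81801192-81801441 (plus strand): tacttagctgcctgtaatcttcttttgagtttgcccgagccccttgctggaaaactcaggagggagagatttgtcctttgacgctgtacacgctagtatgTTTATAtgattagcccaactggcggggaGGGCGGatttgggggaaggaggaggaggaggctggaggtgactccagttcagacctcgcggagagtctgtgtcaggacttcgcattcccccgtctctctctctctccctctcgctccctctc
PRKAG2, chr7:151736264-151736513 (minus strand): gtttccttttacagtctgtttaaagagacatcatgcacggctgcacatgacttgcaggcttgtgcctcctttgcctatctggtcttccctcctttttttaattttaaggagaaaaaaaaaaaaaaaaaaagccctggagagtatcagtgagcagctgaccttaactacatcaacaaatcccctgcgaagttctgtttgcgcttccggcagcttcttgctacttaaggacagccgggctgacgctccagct
PIK3R1, chr5:68288269-68288518 (plus strand): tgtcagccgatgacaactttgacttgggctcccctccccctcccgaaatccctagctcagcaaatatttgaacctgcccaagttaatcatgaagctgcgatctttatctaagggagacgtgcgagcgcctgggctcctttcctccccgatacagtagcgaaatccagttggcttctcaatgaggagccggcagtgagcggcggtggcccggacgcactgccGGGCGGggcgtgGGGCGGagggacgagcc
DCLK1, chr13:35855668-35855917 (minus strand): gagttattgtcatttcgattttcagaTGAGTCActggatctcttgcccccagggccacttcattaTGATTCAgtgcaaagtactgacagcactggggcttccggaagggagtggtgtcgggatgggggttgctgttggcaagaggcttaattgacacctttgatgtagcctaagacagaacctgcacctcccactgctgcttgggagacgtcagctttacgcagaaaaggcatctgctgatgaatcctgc
GLIS3, chr9:4298497-4298746 (minus strand): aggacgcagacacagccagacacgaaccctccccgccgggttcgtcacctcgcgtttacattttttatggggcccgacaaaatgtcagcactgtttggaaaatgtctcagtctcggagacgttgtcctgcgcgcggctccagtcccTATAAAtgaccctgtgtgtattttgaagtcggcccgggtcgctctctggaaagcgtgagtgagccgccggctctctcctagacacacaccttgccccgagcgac
SESN1, chr6:109009553-109009802 (minus strand): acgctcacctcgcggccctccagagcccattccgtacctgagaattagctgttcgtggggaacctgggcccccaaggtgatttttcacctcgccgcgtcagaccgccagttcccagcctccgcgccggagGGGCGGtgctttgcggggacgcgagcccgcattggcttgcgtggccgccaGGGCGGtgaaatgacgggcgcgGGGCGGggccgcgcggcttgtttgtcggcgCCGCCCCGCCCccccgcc
DANCR, chr4:52712144-52712393 (plus strand): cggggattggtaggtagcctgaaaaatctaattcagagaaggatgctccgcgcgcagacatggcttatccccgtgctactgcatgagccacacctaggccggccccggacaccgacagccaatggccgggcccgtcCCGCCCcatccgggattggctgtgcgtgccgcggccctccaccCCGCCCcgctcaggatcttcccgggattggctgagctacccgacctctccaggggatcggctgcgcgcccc

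The windows differed widely in base composition. SESN1 held 32 CpG dinucleotides and 5 GC boxes, HK1 30 CpG and 2 GC boxes, and DANCR 22 CpG and 2 GC boxes. DCLK1 held 5 CpG and 2 AP-1 matches, and PRKAG2 held 6 CpG and no match to any of the 4 motifs. Over the 15 windows within gained regions, 1 per gene in each region, the median GC content was 54.8% and the median CpG count 11. For the 2864 starts within eligible distal regions these were 59.2% and 12, and for all 35116 RefSeq windows they were 58.0% and 11. These larger sets kept every start of a gene, so they were counted differently from the 15. A GC box occurred in 5 of the 15 windows (33.3%), against 45.3% of the windows in eligible regions and 42.6% of all windows. An AP-1 match occurred in 2 (13.3%), against 11.7% and 6.57%. A TATA box occurred in 3 (20%), against 8.00% and 10.7%. An E-box occurred in none, against 5.76% and 6.34%. A match is only a run of letters and shows no bound factor, and 15 windows are few.

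**Figure D1:**
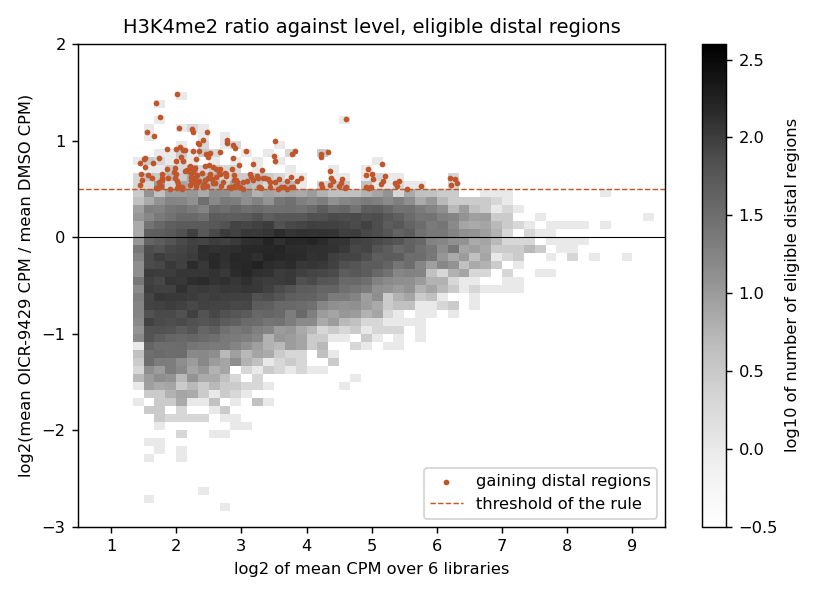
Log2 ratio of the mean OICR-9429 CPM to the mean DMSO CPM (vertical axis) against the log2 of the mean CPM over 6 libraries (horizontal axis), with shading for the log10 number of eligible distal regions, points for the 194 gained regions and a dashed line at the ratio of 0.5. Most eligible regions lie below 0, and the gained regions above the line crowd toward low levels.

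Among the eligible distal regions, 7546 had a ratio above 0. In 1678 (5.36%) every OICR-9429 CPM lay above every DMSO CPM, and in 12236 (39.1%) every one lay below. The ratio reached 0.5 in 236 eligible regions, of which the 194 also had groups that did not overlap. The number rests on the scaling and on single libraries: the rule found 1130 regions with TMM-scaled CPM, the 194 among them, and 411 without OICR-9429 replicate 1. Within the gained set the median log2 ratio was 0.61, the middle 50% ran from 0.54 to 0.75, and the highest was 1.48. In 12 regions the ratio was at least 1 and in 85 it was under 0.6. The mean count was under 100 in 78 gained regions and 1000 or more in 5.

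Summed over the 194 regions, CPM was 1798, 1822 and 1673 in DMSO replicates 1 to 3 and 2710, 2655 and 2837 in OICR-9429 replicates 1 to 3. The libraries within a group were not alike. DMSO replicate 3 gave the lowest DMSO value in 137 of the 194 regions, and OICR-9429 replicate 3 the highest OICR-9429 value in 117. The median CPM of all eligible distal regions was 10.3, 10.7 and 9.18 in DMSO and 7.49, 8.58 and 8.68 in OICR-9429, so DMSO replicate 3 was the lowest and OICR-9429 replicate 3 the highest of its group over these regions too. The part of these library differences in the choice of regions was not tested beyond the values given below for left-out libraries.

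In the edgeR fit over 51156 regions with TMM scaling (trimmed mean of M-values), which uses the same contrast as the rule, all 194 were called higher at an adjusted p under 0.05, where 8.14% of eligible regions were. The fitted log2 fold changes ran from 0.69 to 1.69, with a median of 0.82, against -0.04 over eligible regions and 0.03 over all tested regions. With library totals as the scale, which moved the median over all tested regions to -0.17, 164 were called (2.03% of eligible regions) and the median was 0.62. With loess offsets, fitted so that the ratio no longer follows abundance, 194 were called (4.98% of eligible regions) and the median was 0.99. These calls describe the chosen regions and are no test of them.

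The region with the largest change among those of at least 100 counts lay inside KCP, which encodes a secreted modulator of BMP signalling (chr7:128902782-128904586). Its CPM was 15.4, 18.1 and 10.3 in DMSO and 37.0, 31.6 and 33.9 in OICR-9429. DMSO replicate 3 was the lowest library and OICR-9429 replicate 1 the highest. The means were 14.6 ± 3.97 and 34.2 ± 2.71 (SD, n = 3 each), a log2 ratio of 1.23. Here and in all gained regions the groups do not overlap because the rule required it, so the gap between them is a description. The strongest boundary region of KCP, which the rule did not use, had 9.69 CPM in DMSO and 8.96 in OICR-9429. With an adjusted p of 0.692 in edgeR with TMM it did not pass the test, and its fitted fold change was 0.10 with TMM and -0.10 with library totals.

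DCLK1 encodes a microtubule-associated kinase, and its gained region (chr13:35855080-35856129) contains the internal start printed above. CPM was 4.72, 5.00 and 3.99 in DMSO and 8.89, 8.68 and 9.95 in OICR-9429. OICR-9429 replicate 3 was the highest library, and the log2 ratio was 1.00. The DCLK1 gene-boundary region, some distance away, went from 21.4 to 25.4 CPM (edgeR adjusted p = 0.0502), which did not pass the test.

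PAG1 encodes a membrane adaptor that recruits the Src-inhibiting kinase CSK. The region between genes nearest to it (chr8:80964369-80966258) had 7.75, 8.67 and 6.48 CPM in DMSO and 13.4, 15.3 and 16.9 in OICR-9429, a log2 ratio of 0.99. EFR3A encodes a membrane anchor of a phosphatidylinositol 4-kinase, and its region (chr8:131815538-131817833) lay 86260 bases from the gene. It had 14.2, 16.3 and 11.9 CPM in DMSO and 22.1, 25.8 and 30.2 in OICR-9429, a log2 ratio of 0.88. In both regions DMSO replicate 3 was the lowest and OICR-9429 replicate 3 the highest library.

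INPP5B encodes an inositol polyphosphate 5-phosphatase, and the region inside it (chr1:37865205-37866194) had 5.89, 4.82 and 3.19 CPM in DMSO and 9.32, 7.77 and 10.2 in OICR-9429. Its log2 ratio was 0.97. BAZ1A encodes a subunit of the ACF chromatin remodelling complex, and its region (chr14:34780781-34782191) had 5.19, 5.90 and 3.83 CPM in DMSO and 6.98, 11.004 and 10.98 in OICR-9429. The BAZ1A groups were separated by little, since OICR-9429 replicate 1 lay near the highest DMSO library, and the log2 ratio was 0.96. The INPP5B gene-boundary region rose in edgeR with TMM (adjusted p = 0.0132) but did not pass with loess offsets (0.116), while that of BAZ1A did not pass (adjusted p = 0.0553).

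LRRC8E encodes a subunit of the volume-regulated anion channel, and its region (chr19:7893073-7894188) had 10.7, 10.5 and 8.53 CPM in DMSO and 19.99, 18.5 and 16.7 in OICR-9429. The log2 ratio was 0.90, and here OICR-9429 replicate 1 was the highest library. PHAF1 is named for a role in phagophore or phagosome assembly, and its region (chr16:67114940-67116542) had 5.83, 7.17 and 4.70 CPM in DMSO and 10.6, 10.4 and 11.8 in OICR-9429. Its log2 ratio was 0.89 and the OICR-9429 libraries lay close together. Inside PALM2AKAP2, a gene for a protein kinase A anchoring protein, a region (chr9:110094517-110096294) had 5.31, 6.56 and 3.56 CPM in DMSO and 11.2, 9.82 and 8.25 in OICR-9429, a log2 ratio of 0.92.

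Further regions among these 12 lay far from coding genes or in a neuronal gene. The region at chr5:54861098-54861848 overlaps the pseudogene CSPG4BP and had 3.44, 3.85 and 3.40 CPM in DMSO and 4.85, 6.203 and 11.7 in OICR-9429, a log2 ratio of 1.09. OICR-9429 replicate 3 alone was higher there than the other two libraries together. The fitted log2 fold change of 1.27 (edgeR with TMM) was 0.83 without it. STXBP5L encodes tomosyn-2, a syntaxin-binding regulator of exocytosis, and its region (chr3:121165364-121166303) had 3.96, 4.46 and 3.72 CPM in DMSO and 6.00, 7.07 and 9.10 in OICR-9429. The region at chr10:18917879-18919034, 127893 bases from the nearest coding gene, had 4.66, 4.76 and 3.99 CPM in DMSO and 7.91, 7.77 and 8.98 in OICR-9429. Its log2 ratio was 0.88.

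The highest ratios of all were in weak regions and rest on few counts. The regions with the greatest ratios, inside SOCS4 and ASAP2, had mean counts of 74.7 and 60.7 and log2 ratios of 1.48 and 1.39. The SOCS4 region had 1.63, 3.49 and 1.24 CPM in DMSO and 5.23, 4.69 and 7.83 in OICR-9429. SOCS4 encodes a suppressor of cytokine signalling and ASAP2 an Arf GTPase-activating protein. Both were named after their values were seen. In the ASAP2 region, 3121 bases wide, DMSO signal was under 2 CPM per kb. That low density was found in 6 gained regions (3.09%), against 332 eligible regions (1.06%). Among the 6 were those named by PWWP3A, CLASRP, PTPA and RNF4. DMSO values entered the rule, so this number describes the chosen regions only.

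The strongest gained regions had ratios from 0.50 to 0.62 on the log2 scale. Their fitted log2 fold changes in edgeR with loess offsets were smaller, from 0.38 (chr17:21548208-21552070) to 0.48 (PRKAG2). All of these lay under 0.5, whereas the loess median over the gained set was 0.99. Each of these regions kept its call with loess offsets. HK1 encodes hexokinase 1, which phosphorylates glucose as the first step of glycolysis, and its region (chr10:69315987-69321499) holds an internal start printed above. CPM was 62.4, 60.3 and 68.3 in DMSO and 103, 90.4 and 88.9 in OICR-9429. OICR-9429 replicate 1 was the highest library, and the means were 63.7 ± 4.18 and 94.1 ± 7.74 (SD, n = 3 each), a log2 ratio of 0.56. Of 5 eligible regions of HK1, the 4 others had log2 ratios from -0.19 to 0.50.

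ADGRL2 encodes latrophilin 2, an adhesion G protein-coupled receptor. Its region (chr1:81799144-81804397) contains 6 annotated starts and had 60.4, 55.6 and 69.5 CPM in DMSO and 103, 89.9 and 88.4 in OICR-9429, a log2 ratio of 0.60. ADGRL2 had 9 eligible regions, of which this one gained, 4 fell by the mirrored rule and the median log2 ratio was -0.50. PRKAG2 encodes a regulatory subunit of AMP-activated protein kinase. Its region (chr7:151733009-151737729) had 57.4, 57.6 and 58.6 CPM in DMSO and 97.5, 85.0 and 83.4 in OICR-9429, a log2 ratio of 0.62. PRKAG2 had 23 eligible regions, of which 1 gained, 4 fell and the median log2 ratio was -0.14. The falling share over all eligible regions was 24.7% and their median log2 ratio -0.24. PRKAG2, with 17.4% falling, was below that share, and ADGRL2, with 4 of 9, above it.

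KLF9 encodes a Krüppel-like transcription factor, and the region 3296 bases from it (chr9:70417953-70421889) overlaps KLF9-DT. The KLF9 region had 57.8, 54.4 and 70.3 CPM in DMSO and 94.6, 81.6 and 88.4 in OICR-9429, a log2 ratio of 0.54. PAX8 encodes a paired-box transcription factor of thyroid and kidney, and its 7548-base region (chr2:113234656-113242203) holds starts of PAX8-AS1. It had 42.1, 42.0 and 47.7 CPM in DMSO and 63.3, 60.1 and 67.3 in OICR-9429, a log2 ratio of 0.53. The region at chr17:21548208-21552070 overlaps LINC02693 and had 37.2, 37.7 and 40.4 CPM in DMSO and 55.1, 54.7 and 53.3 in OICR-9429. At 0.50 it had the lowest ratio of the gained set, although the libraries of each group were within a few CPM of one another.

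Other gained regions at internal starts were weaker. PIK3R1 encodes the p85-alpha regulatory subunit of PI3-kinase and has shorter forms from internal starts. Its region (chr5:68287552-68289619) had 25.8, 22.6 and 26.7 CPM in DMSO and 41.2, 40.1 and 36.6 in OICR-9429, a log2 ratio of 0.65. GLIS3 encodes a Krüppel-like zinc finger factor, and its region (chr9:4297158-4300003) had 15.0, 12.5 and 17.9 CPM in DMSO and 26.4, 19.3 and 20.9 in OICR-9429, a log2 ratio of 0.55. The GLIS3 groups lay close, with OICR-9429 replicate 2 just above DMSO replicate 3. SESN1 encodes sestrin 1, a p53-induced protein that restrains mTORC1, and its region (chr6:109008425-109010420) had 15.4, 15.2 and 15.9 CPM in DMSO and 23.2, 22.8 and 20.6 in OICR-9429, a log2 ratio of 0.52.

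Among the noncoding genes, the region at the start of DANCR, a long noncoding RNA, also covers SNORA26 and MIR4449 (chr4:52711443-52715543), with ERVMER34-1 as the nearest coding gene. It had 33.0, 32.8 and 36.3 CPM in DMSO and 53, 48.0 and 52.2 in OICR-9429, a log2 ratio of 0.59. The region at LUNAR1, a long noncoding RNA (chr15:99014088-99016966), had 24.8, 22.9 and 26.8 CPM in DMSO and 37.6, 35.8 and 33.5 in OICR-9429, a log2 ratio of 0.52. These regions, with the gained regions at LINC01812 (log2 ratio 0.81), LOC107985379 (0.79), ARHGEF2-AS1 (0.56) and LINC01537 (0.52), were picked for their starts, which were looked up after the regions had been found. A region counted without strand cannot be assigned to one of 2 overlapping genes.

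**Figure D2:**
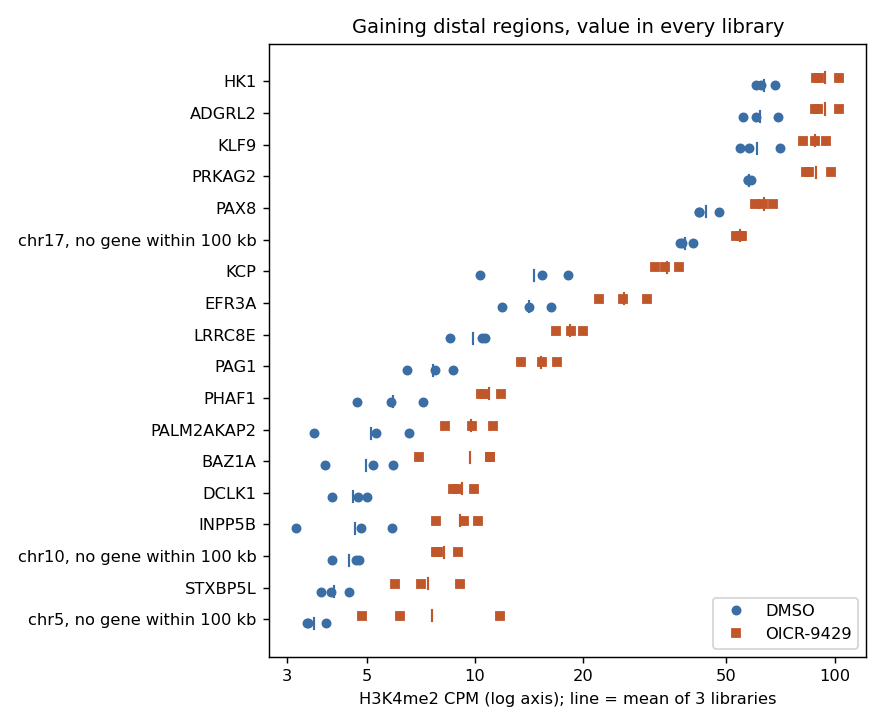
H3K4me2 CPM in each library (horizontal log axis) for the 6 strongest gained regions and the 12 with the largest ratios, 1 row each, with circles for DMSO, squares for OICR-9429 and a line at the mean of 3 libraries. The groups are separate in every row, as the rule requires.

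Of 20 gene lists (625 genes), 1707 eligible distal regions were named by a listed gene, 10 of them gained and 357 (20.9%) fell by the mirrored rule, against 24.7% of all eligible regions. The lists with gained regions were NF-kB and cytokines (3 of 96, with 16 falling), ion channels (2 of 162), TGF-beta and BMP (1 of 129, with 39 falling), receptor tyrosine kinase (1 of 195), Wnt (1 of 115), interferon (1 of 47) and hypoxia and glycolysis (1 of 108). The other 13 lists had none, among them AP-1 (76 eligible), EMT (122), basal (126), integrin (111), YAP (150), p53 (88) and the H3K4 machinery (18). Counts this low give no direction for any list, and the background share was 0.619%. Genes were assigned by position, so a region may act on another gene.

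IL6R and IL6ST encode the binding and signalling chains of the interleukin-6 receptor. The IL6R region (chr1:154431331-154432879) had 12.1, 12.6 and 10.3 CPM in DMSO and 16.6, 15.7 and 19.8 in OICR-9429, a log2 ratio of 0.58. The IL6ST region (chr5:55977531-55979253) had 8.28, 8.91 and 6.59 CPM in DMSO and 10.804, 11.5 and 11.7 in OICR-9429, a log2 ratio of 0.52. In both, DMSO replicate 3 was the lowest library. The third region of that list lay at the chemokine gene CXCL3 (log2 ratio 0.56). The strongest boundary regions of IL6R (52.6 to 65.8 CPM) and IL6ST (64.6 to 76.9 CPM) also rose in edgeR with TMM, with adjusted p of 0.0252 and 0.0160. Neither passed with loess offsets (edgeR adjusted p of 0.204 and 0.462), and IL6ST did not pass with library totals (0.0653).

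AXIN2 encodes a negative regulator of Wnt signalling that is itself a Wnt target. A region 27120 bases away (chr17:65588768-65589342) had 3.15, 3.55 and 2.32 CPM in DMSO and 5.44, 4.91 and 4.43 in OICR-9429, a log2 ratio of 0.71. The AXIN2 boundary region rose from 60.1 to 84.4 CPM (edgeR with TMM, adjusted p = 0.00612) and passed with loess offsets as well (0.0186). NRG1, which encodes a ligand of ERBB3 and ERBB4, had a region (chr8:32720628-32722341) with 10.5, 12.1 and 7.67 CPM in DMSO and 12.1, 14.2 and 16.9 in OICR-9429. OICR-9429 replicate 1 barely exceeded DMSO replicate 2 there, and the log2 ratio was 0.52.

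SP140 encodes a nuclear body protein with a bromodomain. Its region (chr2:230229926-230232459) had 7.93, 8.73 and 7.61 CPM in DMSO and 10.2, 13.3 and 20.02 in OICR-9429, with the OICR-9429 libraries widely spread and a log2 ratio of 0.84. KCNMA1, which encodes the BK potassium channel, had a region (chr10:77512192-77514890) with 27.9, 27.3 and 23.3 CPM in DMSO and 38.1, 36.5 and 38.3 in OICR-9429. The KCNMA1 log2 ratio was 0.52 and its OICR-9429 libraries lay within 2 CPM of one another.

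MCC, named for its mutation in colorectal cancer, was the gene with most gained regions and was named after its values were seen. Of 10 eligible regions, 3 gained, none fell by the mirrored rule, and the median log2 ratio was 0.34 with a range of -0.27 to 0.60. The gained regions lay at chr5:113029010-113030791 (log2 ratio 0.52), chr5:113162575-113163682 (0.60) and chr5:113330931-113331581 (0.51). The second had 8.63, 9.45 and 7.23 CPM in DMSO and 10.3, 12.9 and 15.2 in OICR-9429. KIFAP3, ANKRD60 and TNFSF8 each had 2 gained regions, and each pair lay within 100 kb. These 3 pairs were the only runs of gained regions at that spacing. In all, the gained regions named 156 genes, of which 55 (35.3%) also had a falling region. Among the 8924 genes named by any eligible region 43.3% had one, but the 2 shares cannot be set against each other. For 36 of the 156 genes no eligible region was left besides the gained one, so none could fall. In the background, 3702 genes had only 1 eligible region, and that region was free to fall.

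**Figure D3:**
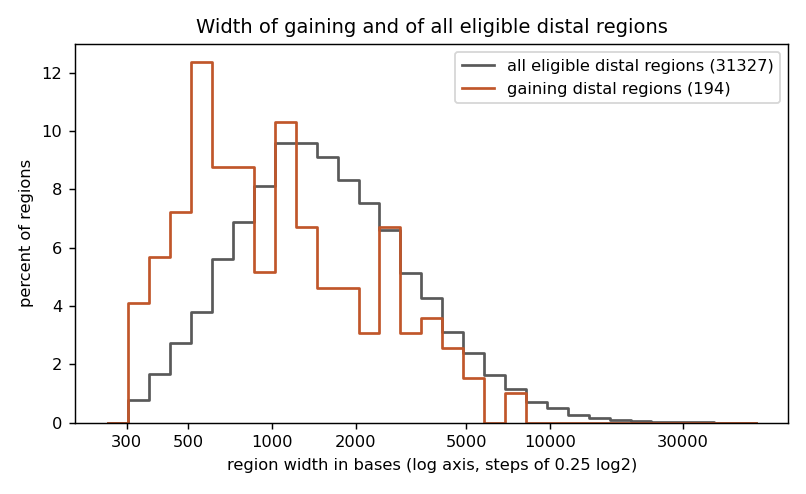
Percent of regions (vertical axis) by region width in bases (horizontal log axis) for the 194 gained and the 31327 eligible distal regions. The gained regions are shifted to smaller widths, with 51.0% under 1 kb against 28.4%, and 38.8% in falling regions, which are not drawn.

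The gained regions were narrower than eligible regions, and so were the falling regions. The median width was 985 bases (middle 50% 588 to 1781) in the gained set, 1481 bases (930 to 2508) over eligible regions and 1186 bases in falling regions. Of the gained regions 99 (51.0%) were under 1 kb wide, against 28.4% of eligible and 38.8% of falling regions. The median of the mean counts was 118 in gained, 167 in eligible and 106 in falling regions. Smaller width and fewer counts are thus shared by regions that changed in either direction. Width moved with abundance over all eligible regions, so widths were also set side by side within 5 equal bins of abundance (mean raw count). The bins held 50, 59, 35, 19 and 31 gained regions from lowest to highest abundance, and eligible regions had a median log2 ratio of -0.50 in the lowest bin and -0.05 in the highest. Median widths in the gained set were 522, 719, 1161, 1714 and 2879 bases, against 693, 1007, 1410, 2074 and 3791 in eligible regions. Annotated starts lay in 0, 2, 1, 3 and 8 gained regions by bin, and in 108, 123, 208, 413 and 1345 eligible regions, so most lay in the highest bin in both sets. Outside these 14, the other 180 gained regions had a median width of 873.5 bases.

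Position relative to genes was close to that of eligible regions. Of the gained regions 95 (49.0%) lay inside a protein-coding gene and 99 between genes, against 50.9% inside. The median distance to a coding gene end was 30214.5 bases against 33069, and 33 (17.01%) were more than 100 kb from any coding gene, against 14.8%. A long noncoding RNA gene was overlapped by 35 (18.0%), against 20.5%, and a pseudogene by 8 (4.12%), against 2.44%. Chromosome 19 held 12 gained of 853 eligible regions, or 14.1 per 1000, and chromosome 9 held 14 of 1330, or 10.5. Chromosome 1 held 24, or 7.97 per 1000, and chromosome 12 held 5, or 3.16. All 4 gained regions named by a ZNF gene (ZNF429, ZNF486, ZNF610 and ZNF787) were on chromosome 19. A further 6 were named by members of multi-copy families (FAM72B, FAM90A26, FRG2C, NBPF8, PPIAL4G and ZNG1F), where reads from near-identical copies are uncertain. These ZNF and multi-copy groups were named after the values were seen. The share of eligible regions with such names was not counted, so neither number marks the gained set.

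The regions next to a gained region were compared with those next to any eligible region. A neighbour was the nearest region on each side with a mean count of at least 50 that was not itself gained. The rule thus excluded gained regions as neighbours in every set. Falling regions were kept as neighbours, also for the falling set, so its median is not a mirror of that for gained regions. Neighbours of gained regions had a median log2 ratio of 0.06 (n = 388, 54.9% above 0), against -0.15 (35.3% above 0) for eligible regions and -0.26 for falling regions. Within 10 kb the median was 0.12 (n = 109) against -0.16, and beyond 50 kb -0.06 (n = 135) against -0.13. Among distal neighbours within 50 kb it was 0.00 (n = 176) against -0.24, and among boundary neighbours 0.25 (n = 77) against 0.16. The difference was larger among distal neighbours and smaller with distance. Neighbours share the libraries and the local chromatin, so these medians are descriptions with no test.

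**Figure D4:**
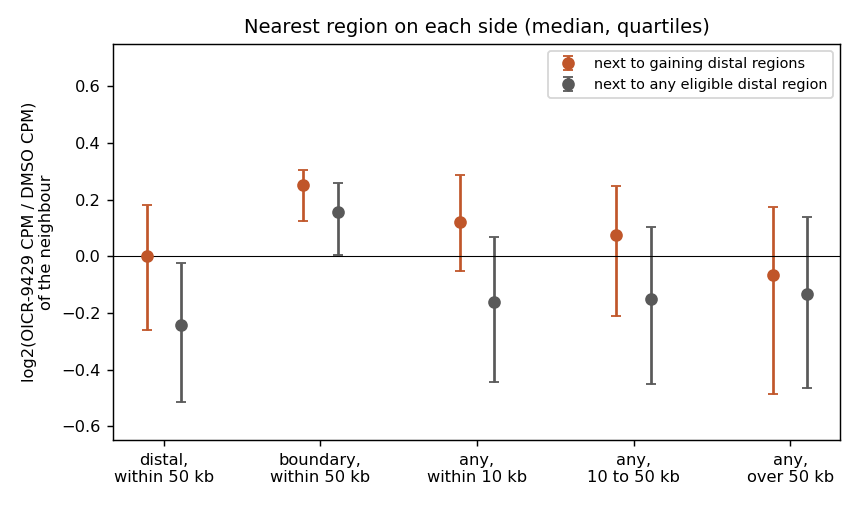
Log2 ratio of mean OICR-9429 CPM to mean DMSO CPM (vertical axis) of the nearest region on each side of gained and of all eligible distal regions, by kind and distance of the neighbour, with points for medians and bars for quartiles. Gained regions and regions with a mean count under 50 were passed over as neighbours. Neighbours of gained regions have the higher median in each of the 5 classes, with overlapping quartile ranges.

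At the gene boundaries, 118 of the 156 genes named by a gained region had a boundary region. Their median log2 ratio was 0.24, and 88.1% were above 0, against 0.18 and 81.0% for the 6646 genes named by any eligible region. In edgeR with TMM, 77 of the 118 rose and 2 fell, or 65.3% higher against 52.7% of the genes named by any eligible region. With library totals 48 of the 118 rose (40.7%, against 24.1%) and with loess offsets 16 (13.6%, against 6.67%), so the count depends on the scaling. The difference between the 118 genes and the background was not tested.

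The rule was also applied to 4 libraries at a time, leaving out 1 DMSO and 1 OICR-9429 library, and the chosen regions were read in the left-out pair. Over the 9 pairs the rule chose 245 to 697 regions, with medians of 0.56 to 0.63 in the libraries that chose them. In the left-out pair their medians ran from -0.07 to 0.49, against -0.48 to -0.07 for eligible regions. With DMSO 1 and OICR-9429 3 left out the left-out median was 0.49, with 91.8% above 0. With DMSO 2 and OICR-9429 1 left out it was -0.07, with 42.3% above 0, and with DMSO 1 and OICR-9429 1 left out it was 0.04, with 54.1% above 0. OICR-9429 replicate 1 is the deepest library, and eligible regions had their lowest medians in these pairs, -0.48 and -0.41. The pair of OICR-9429 1 with DMSO 3 differed from them, with a median of 0.39 and 81.0% above 0. Leaving out DMSO 3 and OICR-9429 3 gave the next lowest median, 0.17, with 71.7% above 0. In each of the 9 pairs the chosen regions stood above the eligible regions by 0.24 to 0.71 on the log2 scale.

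**Figure D5:**
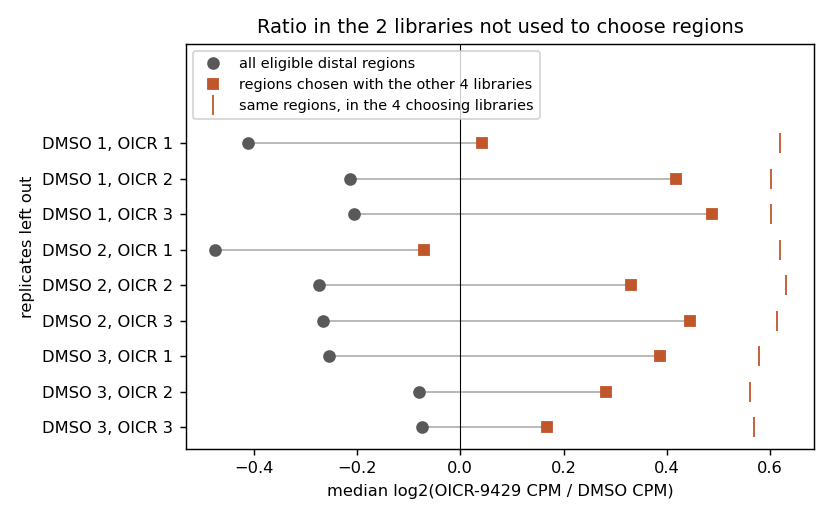
Median log2 ratio of OICR-9429 CPM to DMSO CPM (horizontal axis) in each of the 9 left-out pairs of libraries (rows), with squares for regions chosen with the other 4 libraries, circles for all eligible distal regions and ticks for the chosen regions in the 4 choosing libraries. Squares lie to the right of circles in all 9 rows and short of the ticks, and fall near 0 where OICR-9429 replicate 1 was left out with DMSO replicate 1 or 2.

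At the thresholds, chr17:21548208-21552070, BEAN1 and LIMS1 were just inside the ratio of 0.5, and PSG3, GOLGA6L7 and the HK1 region at chr10:69347076-69354076 were just outside, all 6 at 0.50 after rounding. AKR1C3, ZNF486 and ARHGAP24 had mean counts of 50.0, 50.3 and 50.8, and MAD1L1, AK5 and AMPD2 had 49.3, 48.7 and 48.5. AKR1C3, the gene of an aldo-keto reductase, had a region with 2.51, 2.17 and 1.997 CPM in DMSO and 2.55, 3.18 and 3.94 in OICR-9429. Its DMSO replicate 1 and OICR-9429 replicate 1 were nearly equal, and its edgeR call was lost in 6 of 13 alternative settings.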

How the data were processed

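H3K4me2 ChIP-seq read counts of 3 DMSO and 3 OICR-9429 libraries were taken from the table the authors deposited. Its values are raw counts per region, not normalised, over one common set of regions in hg38. Bowtie, MACS2, deepTools, featureCounts and DESeq2 are named in the submitters' processing notes. The sources used here do not state settings, read filters or the treatment of multi-mapping reads.

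CPM are counts divided by the column total. Gene ends and starts came from RefSeq tables of GRCh38.p14 (20056 protein-coding genes). A region took the name of the coding gene holding it, or of the nearest within 100 kb. The members, the gene lists and the rule for named regions were chosen with earlier results of these data known. Named regions were the 12 largest ratios among members of at least 100 counts, the 6 strongest, the 3 widest, those at the thresholds or in runs, and up to 2 per list. Some regions and genes that meet these rules are not reported here. Regions at annotated starts, motif searches and groups marked as such were chosen after values were seen.

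All regions were fitted by the quasi-likelihood test of edgeR 4.0.16 (R 4.3.3), robust, after filterByExpr and TMM, with Benjamini-Hochberg adjustment over 51156 regions and a threshold of 0.05. Adjusted p-values and log2 fold changes come from that fit. Alternatives were library totals, size factors, loess offsets (limma 3.58.1, span 0.3), DESeq2 1.42.0, other count and fold thresholds, and left-out libraries. In simulated counts of this comparison (200 of 50951 regions changed) edgeR recovered 87% of log2 changes of 1 and 23% of 0.5. The fit of the measured counts called far more regions, 2551 distal regions higher and 5063 lower. Recovery with that many regions called was not tested, so both percentages hold for the simulated setting only.

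The replicates differed by more than sampling noise in every pair within a group, but not equally. The chi-square per region was lowest, 1.55, for DMSO replicates 1 and 2 and highest, 8.88, for OICR-9429 replicates 1 and 3. The p-values measure only the spread between these libraries, which may be technical. At the mean count minimum of 50, counting error limits each value.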

Additional observations from a re-analysis of the deposited data

How the results depend on the processing

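The number of gained regions depended most on the scaling. The rule found 194 regions with column totals, 1130 with TMM, 870 with DESeq2 size factors and 1621 with loess offsets, and 179 of the 194 were found under each of these. Other settings gave 116 (mean count of 100), 413 (ratio of 0.4), 64 (ratio of 0.7) and, without 1 library, 201 to 411. The lowest was without OICR-9429 replicate 3, the highest without OICR-9429 replicate 1 (157 of the 194 shared), and 319 were found without DMSO replicate 2. A mean count of 20, a distance of 5 kb, noncoding gene ends and no separation of groups kept the number within 1.5 times. Among distal regions called, 2551 were higher and 5063 lower with TMM. Library totals gave 637 higher and 8768 lower, loess offsets 1559 higher, no count filter 1553 higher, a mean count of 50 gave 1224 higher, and an adjusted p under 0.01 gave 421 higher and 1945 lower. Without 1 library, 362 to 3382 were higher and 2919 to 5939 lower. The fewest higher calls came without DMSO replicate 1 (362) or 2 (394), and OICR-9429 replicates 2 (1167) and 3 (1636) also moved the number by over 1.5 times. Lower calls were 3101 and 2919 without DMSO replicates 1 and 2. Same-numbered libraries did not deviate together (r of -0.16, 0.12 and -0.18), and with the replicate number as a block 1655 were higher. Of the 194, 153 to 194 were called higher without 1 library and 194 with the block. The 153 came without DMSO replicate 2, where 394 of 31327 eligible regions were called higher. All 194 were called without DMSO replicate 3, where 3382 eligible regions were, and the block called 1655. Of 36 named regions, 28 kept their call in all 13 alternatives, 8 lost it in at least 1 (AKR1C3 in 6) and none changed sign. The same contrast in the same libraries chose these regions, so kept calls and signs follow largely from the choice and are no test. The motif window of 200 bases was not run, since it needs a genome, which was not used here. Depth limits the 78 gained regions under 100 counts.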
